A study of Mus musculus with 12 samples.

Results

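The genes of the Wnt pathway that act at or near the cell surface, with the genes that report its activity, were followed in RNAseq of mouse brainstem neurospheres. The set held 50 of the 54532 genes in each count table, namely 17 Wnt ligands, 15 receptors and co-receptors, 9 secreted inhibitors and 9 feedback or target genes. Members were taken by gene name, and all 50 were found in the tables. The 12 libraries fell into 4 groups of 3, in which cells received *ACVR1* WT or *ACVR1* R206H, each alone or together with H3.1K27M. ACVR1 is a type I receptor for bone morphogenetic proteins, R206H is an activating change in it that occurs in diffuse intrinsic pontine glioma, and H3.1K27M is the histone mutation that often accompanies it there. All 12 libraries came from brainstem progenitors of C57BL/6 pups aged P3-P5 with the genotype Nestin TVA; p53 floxed, grown without serum in EGF and FGF2. In every group, RCAS vectors delivered human *ACVR1*, so that the controls carried an added wild-type receptor, and 2 of the groups received a vector for H3.1K27M besides. The nestin promoter drives TVA, the receptor through which RCAS virus enters, which limits infection to nestin-expressing cells. The labels name no Cre vector for these samples, do not give the share of infected cells, and do not say whether the replicates were separate cultures, so that p-values may measure technical spread alone. For its neurosphere assays in general, the methods of the study count lines from separate litters as samples, without naming the RNAseq libraries.

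Wnt proteins are secreted lipid-modified ligands that bind Frizzled receptors. Together with the co-receptors Lrp5 and Lrp6 they stop the destruction of beta-catenin, which then enters the nucleus and works with TCF/LEF factors on target genes, several of which feed back on the pathway. Other Wnts, of which Wnt5a is the best known, act mainly without beta-catenin through Ror and Ryk receptors and shape cell polarity and movement, while Wnt7a and Wnt7b are prominent ligands of the neural tube that signal to the brain's blood vessels.

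Counts summed to between 19315020 and 26456257 per library. Id1, a direct target of BMP receptor signalling that checks the receptor labels, ranged from 11.9 to 21.8 CPM (counts per 1000000, scaled by TMM over the 12 libraries) with *ACVR1* WT and from 32.5 to 40.5 with *ACVR1* R206H. With H3.1K27M it ranged from 12.5 to 14.0 and from 94.1 to 118 CPM in the same order. The library labelled *ACVR1* WT replicate 1 stood apart from its group: across 15445 genes its log2 CPM correlated at 0.955 to 0.973 with the other *ACVR1* WT libraries and at 0.987 to 0.991 with the *ACVR1* R206H libraries, although its Id1 level of 12.5 CPM lay in the range of *ACVR1* WT. Summed over 6 microglia markers it held 3.62 CPM against 14.1 and 23.2 in the other *ACVR1* WT libraries. The biological coefficient of variation was 0.274 in the *ACVR1* WT group and between 0.0451 and 0.0594 in the other groups, so that the calls of each comparison with *ACVR1* WT without H3.1K27M are given with and without that library. The members were noisier than the average gene, with a median coefficient of variation of 22.1% among the *ACVR1* WT libraries and 7.09% among those with both mutations, against 15.3% and 5.53% over all genes. The 8 markers of neural progenitors, all with counts in every library, summed to 6046 to 7306 CPM with *ACVR1* WT, 7152 to 7245 with *ACVR1* R206H, 7304 to 7793 with *ACVR1* WT and H3.1K27M and 7896 to 8392 with both mutations. Within that sum Hes5 had means of 72.0 and 68.7 CPM without H3.1K27M and 9.61 and 8.93 with it, and Sox2 354 and 358 against 229 and 260, with *ACVR1* WT first in each pair. The means of Msi1 were also lower with H3.1K27M for each receptor. Those of Nes (203 and 256 against 329 and 268), Olig2 (624 and 644 against 884 and 749), Slc1a3 (1505 and 1283 against 1735 and 1935) and Vim (1637 and 2130 against 1841 and 2570) were higher. Fabp7 was higher with *ACVR1* WT and lower with *ACVR1* R206H. The part of these differences in the changes of the members was not tested. In bulk libraries, fewer cells of a kind and less RNA per cell cannot be told apart.

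Per length of exon, a small number of members carried most of the signal. Wnt7b was the most abundant ligand, with a median of 47.7 CPM per kb over the 12 libraries (range 34.0 to 54.8), followed by Wnt5a at 12.04, Wnt7a at 7.56 and Wnt5b at 4.61 CPM per kb. The ranges of Wnt7b and Wnt5a did not overlap, whereas that of Wnt5b (2.65 to 9.50) spanned the whole of that of Wnt7a (5.72 to 9.42). The other 13 ligands had medians under 1 CPM per kb. Among the receptors Fzd9 led with 64.7 CPM per kb, then Ryk with 31.3 and Fzd3 with 22.1, with no overlap between the ranges of these 3 genes, and all 15 receptors exceeded a median of 1. The co-receptor Lrp6 and the receptor Fzd1 had like median levels of 8.43 and 8.42 CPM per kb, but Lrp6 stayed between 7.94 and 9.44 while Fzd1 ran from 5.47 to 17.4. The inhibitors were scarcer, with Dkk3 the most abundant at a median of 2.29 CPM per kb. Axin2, the scaffold protein whose gene is a widely used readout of beta-catenin, was the most abundant feedback gene with 7.74 CPM per kb (7.13 to 10.4).

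**Figure D1:**
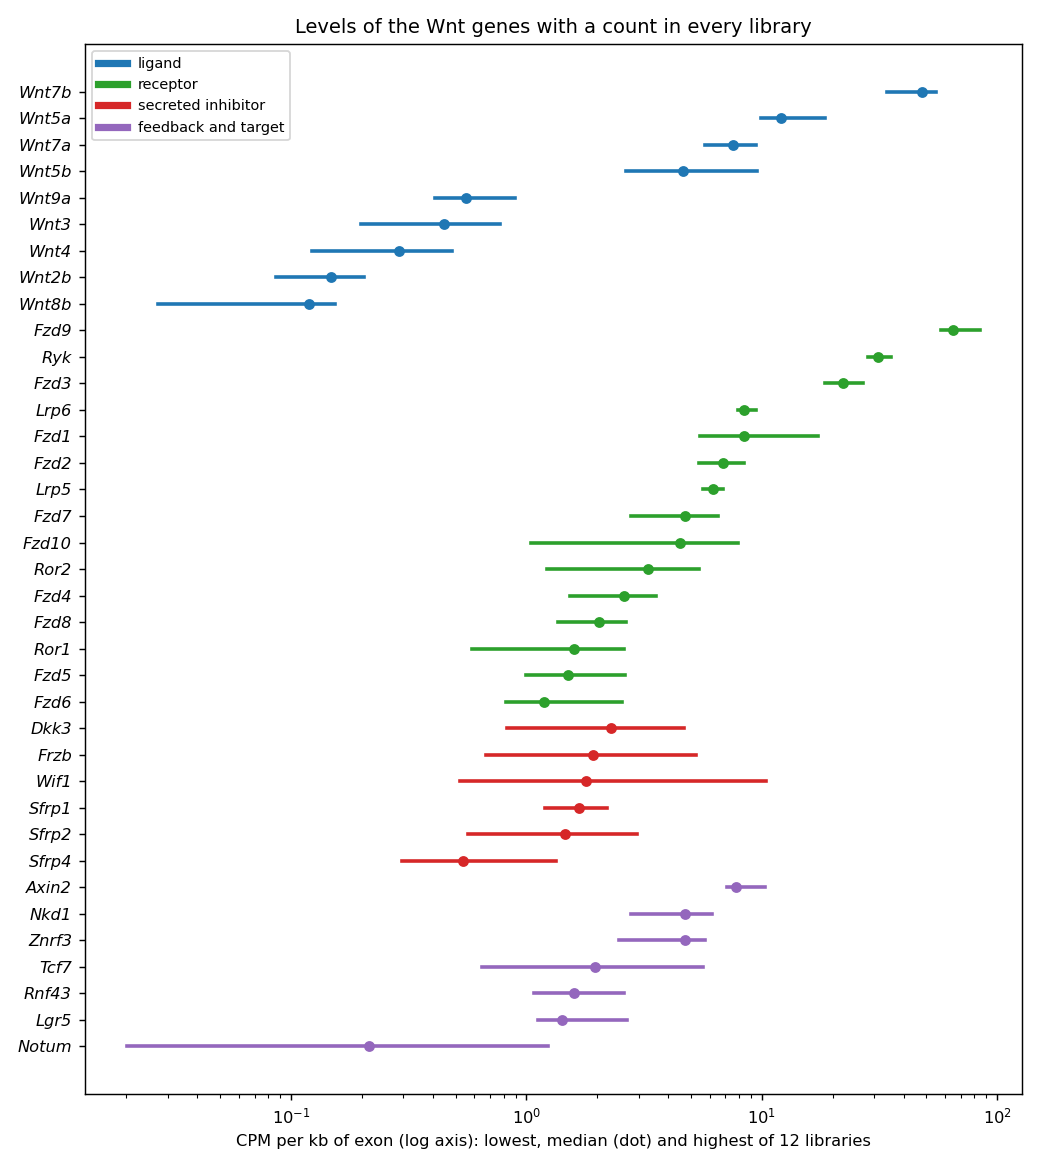
Level of each member that had a count in every library, in CPM per kb of exon on a log axis, with the lowest, median and highest of 12 libraries, coloured by role. Wnt7b (34.0 to 54.8 CPM per kb) and Fzd9 (58.0 to 84.4) lead the ligands and the receptors, and Notum and Wif1 have the widest ranges among the members shown here.

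Between 35 and 37 members, depending on the comparison, had the mean of 10 normalized counts that the tests required, and 13 were tested in none. These were the ligands Wnt1, Wnt2, Wnt3a, Wnt6, Wnt8b, Wnt10a, Wnt10b, Wnt11 and Wnt16, the inhibitors Sfrp5, Dkk1 and Dkk2, and the transcription factor gene Lef1. The highest count of any of them in any library was 21, in Wnt11, and 9 of the 13 stayed under 10 counts everywhere. Wnt1 had no count in 9 of 12 libraries, Dkk1 in 8 and Wnt3a in 7. A count of 0 allows a level of up to 0.112 to 0.156 CPM, depending on the library (3 counts, counting error only), so that these genes were not detectable at this depth in those libraries.

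The first question was what the mutant receptor changed in cells that also carried H3.1K27M. The secreted inhibitor Wif1 was 7.84 times as high with *ACVR1* R206H, the receptor Fzd1 and the transcription factor gene Tcf7 were higher too, and the ligand Wnt5a was lower. Of 37 members tested 20 passed an adjusted p of 0.05 in edgeR (quasi-likelihood F test, p-values adjusted by the Benjamini-Hochberg method over 15672 genes), 13 of them higher and 7 lower with *ACVR1* R206H. Over all genes tested 20.3% passed, 11.4% higher and 8.95% lower. The median size of the log2 fold change, without its sign, was 0.31 in the members and 0.12 in all genes, so that most of these changes were modest, and 3 members changed by 1 or more. The 20 consisted of 4 of 8 ligands tested, 7 of 15 receptors, 5 of 6 inhibitors and 4 of 8 feedback genes. Among the members tested, the groups did not overlap in 15 that were higher and 8 that were lower with *ACVR1* R206H, against 37.2% of all genes (14.8% higher and 22.4% lower). These counts and the median include Notum and Sp5, which had enough counts for the test only through the libraries with both mutations, and Notum, for which a difference was thus built in, is 1 of the 20. Requiring 10 counts in every library, which leaves out Notum, gave 19 of 35 members, 12 higher and 7 lower, against 21.4% of all genes. When all 12 libraries shared an estimate of the spread, 7 members passed, against 2.85% of all genes, all of them among the 20 (Wif1, Notum, Sfrp4, Tcf7, Fzd1, Fzd5 and Wnt5a). Leaving out each library in turn gave 17 to 21 members, against 12.3% to 19% of all genes, with Frzb, Fzd7, Sfrp2 and Wnt7a losing their calls in at least 1 case.

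**Figure D2:**
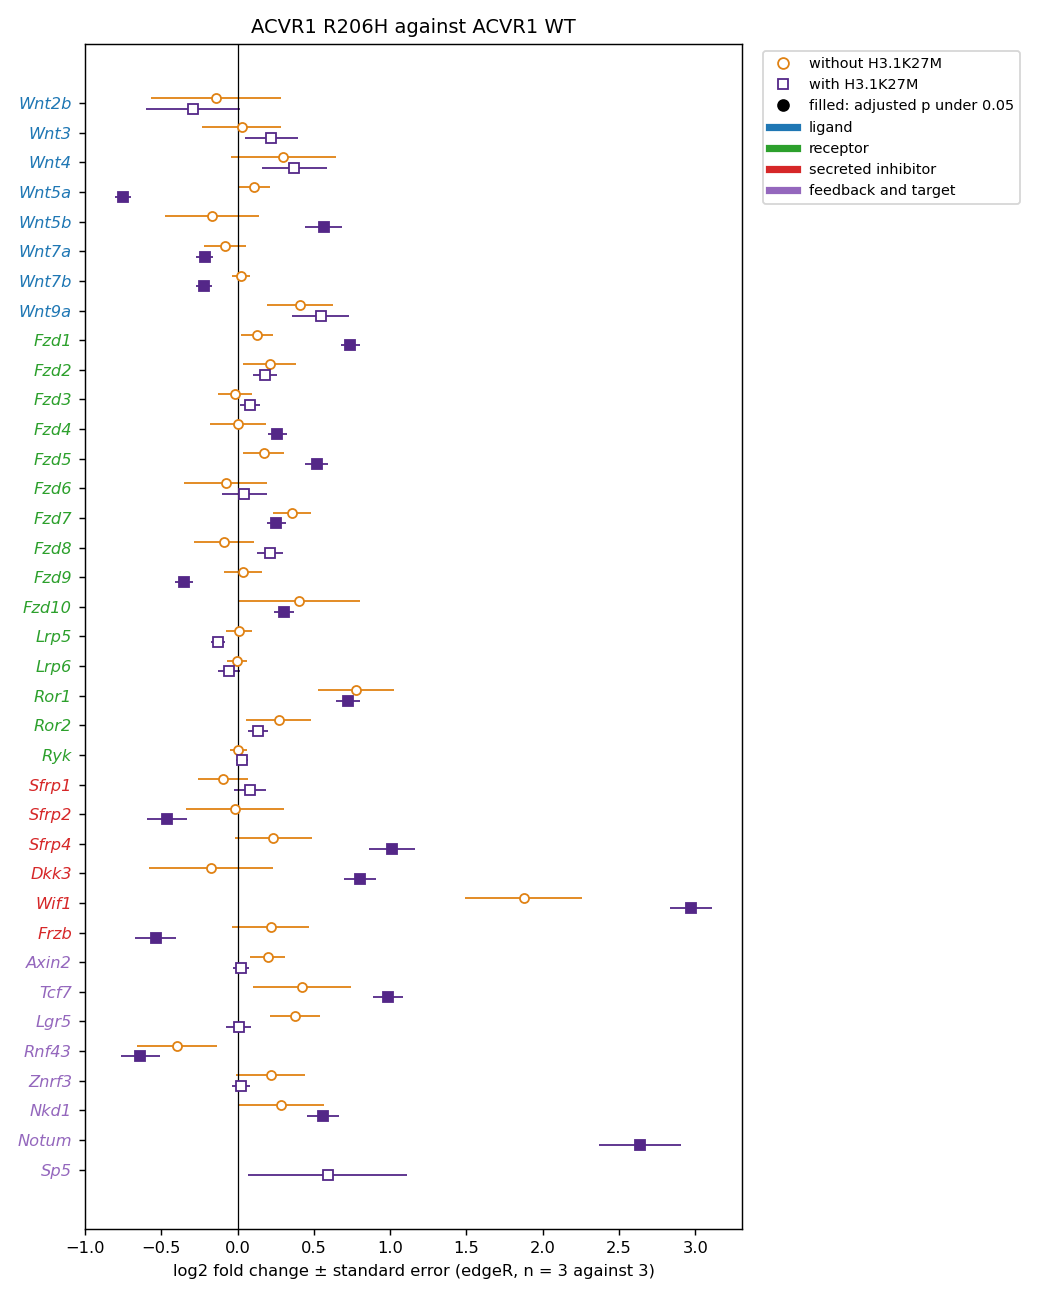
Log2 fold change with its standard error for each tested member, *ACVR1* R206H against *ACVR1* WT, without H3.1K27M (circles) and with it (squares), filled where the adjusted p was under 0.05. With H3.1K27M 20 squares are filled, led by Wif1 at 2.97 on the higher side and Wnt5a at -0.75 on the lower side, and no circle is filled. Notum (2.64) is shown although it entered the test only through the libraries with both mutations.

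The promoters of members that changed in that comparison are shown, to give the sequence next to the genes with the largest shifts and to look for motifs of Wnt and of BMP signalling. For 35 of the 50 members, RefSeq on GRCm38.p6 gave the 250 bases before the RefSeq start of transcription (no entry was used for Dkk3, Fzd2, Fzd3, Fzd6, Fzd8, Lgr5, Lrp5, Lrp6, Notum, Sfrp1, Sfrp4, Wnt10a, Wnt5a, Wnt7b and Znrf3). Those of Wif1 (chr10:121033754-121034003, plus strand), Fzd1 (chr5:4758217-4758466, minus strand) and Frzb (chr2:80447397-80447646, minus strand) belong to the 2 members with the largest rise and the member with the largest fall among those that passed and had a single RefSeq start within 250 bases of the GENCODE start. They read as follows, from 5′ to 3′, with capitals marking the TCF/LEF core CTTTGA or its reverse complement TCAAAG.
Wif1: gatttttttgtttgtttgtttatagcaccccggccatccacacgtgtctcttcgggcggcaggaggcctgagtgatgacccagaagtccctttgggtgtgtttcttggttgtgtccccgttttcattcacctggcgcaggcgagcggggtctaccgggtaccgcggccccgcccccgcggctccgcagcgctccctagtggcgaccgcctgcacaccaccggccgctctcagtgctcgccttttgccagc
Fzd1: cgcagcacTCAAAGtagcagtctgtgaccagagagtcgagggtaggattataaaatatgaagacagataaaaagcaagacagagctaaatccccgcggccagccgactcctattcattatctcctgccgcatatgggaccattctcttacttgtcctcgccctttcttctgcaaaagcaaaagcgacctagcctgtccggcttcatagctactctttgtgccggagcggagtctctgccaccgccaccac
Frzb: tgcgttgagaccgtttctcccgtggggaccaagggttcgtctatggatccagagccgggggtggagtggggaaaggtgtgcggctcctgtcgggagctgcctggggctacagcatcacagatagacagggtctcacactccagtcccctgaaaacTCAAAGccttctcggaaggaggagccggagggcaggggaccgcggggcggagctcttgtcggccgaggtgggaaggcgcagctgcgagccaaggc
Searched on both strands, CTTTGA occurred in 6 of the 35 member promoters (17.1%) and in 13.5% of all 20595 promoters of this length. The palindromic BMP-SMAD core GGCGCC occurred in 12 of 35 (34.3%) against 11.3% of all promoters, and the member promoters had a median GC content of 66.8% against 54% for all. The shown Wif1 window held neither motif. Such matches describe the letters of the window and not binding.

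Among the ligands, Wnt5a gave the clearest change. Wnt5a (ENSMUSG00000021994, chr14:28504750-28527448, plus strand, mm10) measured 102, 88.4 and 81.98 CPM with *ACVR1* WT, 107, 97.1 and 91.3 with *ACVR1* R206H, 144, 145 and 141 with *ACVR1* WT and H3.1K27M, and 82.4, 89.7 and 77.9 with *ACVR1* R206H and H3.1K27M. The 3 libraries with *ACVR1* WT and H3.1K27M stood above the other 9, and those with both mutations had the lowest group mean. With H3.1K27M it fell with *ACVR1* R206H, with a log2 fold change of -0.75 (SE 0.05, adjusted p = 1.39e-06), a ratio of 0.594.

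Wnt7b (ENSMUSG00000022382, chr15:85535437-85582473, minus strand) measured 254, 254 and 256 CPM with *ACVR1* WT, 251, 260.3 and 269 with *ACVR1* R206H, 216, 203 and 187 with *ACVR1* WT and H3.1K27M, and 172, 171 and 167 with *ACVR1* R206H and H3.1K27M. Its level was nearly constant in the 6 libraries without H3.1K27M and lower in the 6 with it, with the lowest values under both mutations, where it fell with a log2 fold change of -0.22 (SE 0.05, adjusted p = 0.00745). The related Wnt7a had 23.4, 24.6 and 18.2 CPM with *ACVR1* WT, 20.3, 22.8 and 19.9 with *ACVR1* R206H, 29.9, 28.4 and 28.7 with *ACVR1* WT and H3.1K27M, and 25.5, 23.5 and 24.5 with *ACVR1* R206H and H3.1K27M. It was lower with *ACVR1* R206H in the comparison under H3.1K27M, with a log2 fold change of -0.21 (adjusted p = 0.0165), and stayed within or above the range of 18.2 to 24.6 CPM seen without the histone. Wnt5b, a close relative of Wnt5a, measured 11.4, 25.2 and 23.4 CPM with *ACVR1* WT, 14.8, 20.9 and 17.98 with *ACVR1* R206H, 9.63, 7.02 and 7.28 with *ACVR1* WT and H3.1K27M, and 11.8, 10.3 and 12.6 with *ACVR1* R206H and H3.1K27M. It moved opposite to Wnt5a: the *ACVR1* WT libraries with H3.1K27M were the lowest, and it rose with *ACVR1* R206H there, with 0.57 (SE 0.12, adjusted p = 0.00564).

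Of the scarcer ligands, Wnt3 passed between the libraries with and without H3.1K27M for both receptors, and Wnt4 and Wnt9a with *ACVR1* R206H, at 0.85 (adjusted p = 0.0124) and 0.56 (adjusted p = 0.024), but not with *ACVR1* WT, at 0.77 (adjusted p = 0.106) and 0.42 (adjusted p = 0.233). Wnt3, a ligand of the beta-catenin route, had 0.612, 0.929 and 0.922 CPM with *ACVR1* WT, 0.805, 0.936 and 0.778 with *ACVR1* R206H, 1.83, 1.81 and 2.12 with *ACVR1* WT and H3.1K27M, and 2.38, 2.23 and 2.02 with *ACVR1* R206H and H3.1K27M. All 6 libraries with H3.1K27M lay above all 6 without it. Wnt4 counted 0.518, 0.774 and 1.07 CPM with *ACVR1* WT, 1.21, 0.988 and 0.729 with *ACVR1* R206H, 1.54, 1.34 and 1.20 with *ACVR1* WT and H3.1K27M, and 1.57, 1.54 and 2.02 with *ACVR1* R206H and H3.1K27M, higher with H3.1K27M than without it for each receptor and with no overlap. For Wnt9a the values were 1.36, 1.39 and 1.60 CPM with *ACVR1* WT, 2.36, 1.87 and 1.60 with *ACVR1* R206H, 2.49, 1.58 and 1.80 with *ACVR1* WT and H3.1K27M, and 2.71, 2.70 and 2.99 with *ACVR1* R206H and H3.1K27M. Neither Wnt3, Wnt4 nor Wnt9a passed the test between *ACVR1* R206H and *ACVR1* WT with H3.1K27M, where their adjusted p values were 0.422, 0.253 and 0.0627. In that comparison Wnt9a passed with no filter on low counts and without replicate 1 of *ACVR1* WT with H3.1K27M. Wnt2b, the remaining ligand tested, ranged from 0.364 to 0.860 CPM and passed no test.
Summed over the 17 ligands, the CPM came to 392 ± 6.29 (SD, n = 3) with *ACVR1* WT and 402 ± 3.30 with *ACVR1* R206H. With H3.1K27M the sums were 389 ± 18.3 and 298 ± 6.39. These sums are not scaled for length and consist mostly of Wnt7b and Wnt5a. With H3.1K27M the means of these were 202 and 143 CPM with *ACVR1* WT and 170 and 83.3 with *ACVR1* R206H. Of the other ligands tested, Wnt2b and Wnt7a had lower means there with *ACVR1* R206H, and Wnt3, Wnt4, Wnt5b and Wnt9a higher ones.

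Of the receptors, Fzd1 and Ror1 had the largest changes by *ACVR1* R206H when H3.1K27M was present. Fzd1 (ENSMUSG00000044674, chr5:4753839-4758035, minus strand) measured 24.9, 22.96 and 28.2 CPM with *ACVR1* WT, 28.1, 26.3 and 29.2 with *ACVR1* R206H, 41.996, 42.03 and 41.5 with *ACVR1* WT and H3.1K27M, and 72.1, 60.05 and 72.99 with *ACVR1* R206H and H3.1K27M. It was alike in both groups without H3.1K27M, higher with the histone and higher again with both, where it rose by 0.74 (SE 0.06, adjusted p = 6.36e-06). Ror1, a receptor for Wnt5a, had 6.54, 5.73 and 3.40 CPM with *ACVR1* WT, 9.30, 8.27 and 9.38 with *ACVR1* R206H, 9.34, 9.12 and 8.40 with *ACVR1* WT and H3.1K27M, and 13.9, 14.9 and 14.5 with *ACVR1* R206H and H3.1K27M. Its *ACVR1* R206H libraries lay above the *ACVR1* WT libraries in both backgrounds, and the rise with H3.1K27M was 0.72 (SE 0.08, adjusted p = 5.29e-05). Fzd5, a receptor of the beta-catenin route, measured 8.47, 6.96 and 6.89 CPM with *ACVR1* WT, 8.95, 8.01 and 8.31 with *ACVR1* R206H, 13.1, 12.4 and 11.8 with *ACVR1* WT and H3.1K27M, and 18.2, 16.3 and 17.8 with *ACVR1* R206H and H3.1K27M and rose by 0.52 (SE 0.07, adjusted p = 0.000339).

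Smaller rises were seen for Fzd10, Fzd4 and Fzd7. Fzd10 counted 9.88, 4.44 and 3.40 CPM with *ACVR1* WT, 8.55, 6.65 and 8.36 with *ACVR1* R206H, 20.998, 19.3 and 20.3 with *ACVR1* WT and H3.1K27M, and 25.8, 22.4 and 25.2 with *ACVR1* R206H and H3.1K27M, and rose with *ACVR1* R206H by 0.31 (adjusted p = 0.00558) in the presence of H3.1K27M. The library labelled *ACVR1* WT replicate 1 had more than 2 times the Fzd10 level of the others in its group. Fzd4, which also binds the ligand norrin, had 15.8, 10.3 and 12.1 CPM with *ACVR1* WT, 14.5, 12.2 and 11.9 with *ACVR1* R206H, 19.96, 19.4 and 19.2 with *ACVR1* WT and H3.1K27M, and 22.7, 23.8 and 22.3 with *ACVR1* R206H and H3.1K27M with a rise of 0.26 (adjusted p = 0.0101). Fzd7 measured 16.04, 13.3 and 12.6 CPM with *ACVR1* WT, 19.01, 16.7 and 18.2 with *ACVR1* R206H, 25.1, 23.7 and 23.7 with *ACVR1* WT and H3.1K27M, and 29.7, 25.99 and 29.1 with *ACVR1* R206H and H3.1K27M, and its groups were separated in both backgrounds, with a rise of 0.25 (adjusted p = 0.0107) where H3.1K27M was present.

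Fzd9, the most abundant receptor, fell. It had 171, 148 and 133 CPM with *ACVR1* WT, 147, 143 and 176 with *ACVR1* R206H, 193, 190.3 and 167 with *ACVR1* WT and H3.1K27M, and 137, 148 and 137 with *ACVR1* R206H and H3.1K27M, and its log2 fold change with H3.1K27M was -0.35 (SE 0.06, adjusted p = 0.00111). Ryk, Fzd3, Lrp5 and Lrp6 did not pass between *ACVR1* WT and *ACVR1* R206H. Ryk, a Wnt-binding receptor without an active kinase, measured 137, 134 and 129 CPM with *ACVR1* WT, 133, 133 and 136 with *ACVR1* R206H, 158, 155 and 149 with *ACVR1* WT and H3.1K27M, and 155, 147 and 161 with *ACVR1* R206H and H3.1K27M. For Fzd3, which acts in axon guidance and planar cell polarity, the values were 264, 314 and 344 CPM with *ACVR1* WT, 325, 296 and 293 with *ACVR1* R206H, 237, 261 and 280.1 with *ACVR1* WT and H3.1K27M, and 252, 286 and 268 with *ACVR1* R206H and H3.1K27M. Lrp5 counted 66.6, 56.7 and 61.98 CPM with *ACVR1* WT, 60.9, 59.5 and 66.9 with *ACVR1* R206H, 62.5, 63.1 and 59.8 with *ACVR1* WT and H3.1K27M, and 54.9, 56.1 and 54.8 with *ACVR1* R206H and H3.1K27M. With H3.1K27M the log2 fold changes by *ACVR1* R206H were 0.03 for Ryk, 0.08 for Fzd3, -0.13 (adjusted p = 0.0661) for Lrp5 and -0.06 for its partner Lrp6.

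Ror2, the second Wnt5a receptor, was set apart by the histone. It measured 7.999, 5.21 and 5.39 CPM with *ACVR1* WT, 7.80, 6.45 and 8.31 with *ACVR1* R206H, 20.998, 21.6 and 19.7 with *ACVR1* WT and H3.1K27M, and 23.1, 21.1 and 22.7 with *ACVR1* R206H and H3.1K27M. The 6 libraries with H3.1K27M lay between 19.7 and 23.1 CPM and the 6 without it between 5.21 and 8.31, while *ACVR1* R206H gave 0.13 (adjusted p = 0.169) in the presence of the histone. Fzd6, which antagonizes the beta-catenin route in some cells, had 6.12, 7.43 and 12.2 CPM with *ACVR1* WT, 7.90, 9.20 and 7.44 with *ACVR1* R206H, 3.94, 5.30 and 4.20 with *ACVR1* WT and H3.1K27M, and 4.85, 4.76 and 3.96 with *ACVR1* R206H and H3.1K27M, and Fzd8 had 8.14, 9.96 and 12.4 CPM with *ACVR1* WT, 8.40, 9.20 and 11.2 with *ACVR1* R206H, 13.9, 13.8 and 11.8 with *ACVR1* WT and H3.1K27M, and 15.02, 13.9 and 15.8 with *ACVR1* R206H and H3.1K27M. Fzd2 ranged from 19.8 to 30.9 CPM over the 12 libraries and passed no test in the edgeR fits with all libraries and the filter on low counts, while with no filter it passed between the libraries with and without H3.1K27M that carried *ACVR1* R206H.

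Among the secreted inhibitors, Wif1 had the largest change of all members tested with H3.1K27M. Wif1 (ENSMUSG00000020218, chr10:121033960-121100650, plus strand), which binds Wnt proteins outside the cell, measured 3.01, 1.60 and 1.26 CPM with *ACVR1* WT, 9.51, 7.02 and 5.25 with *ACVR1* R206H, 3.07, 3.44 and 2.20 with *ACVR1* WT and H3.1K27M, and 20.6, 20.2 and 25.4 with *ACVR1* R206H and H3.1K27M. Every library with *ACVR1* R206H exceeded every library with *ACVR1* WT, and the highest values came with both mutations. With H3.1K27M the rise was 2.97 (SE 0.14, adjusted p = 4.49e-08), a ratio of 7.84. Sfrp4, a decoy that resembles the Wnt-binding part of Frizzled, had 1.79, 1.24 and 1.46 CPM with *ACVR1* WT, 1.41, 1.72 and 2.19 with *ACVR1* R206H, 2.41, 3.15 and 2.32 with *ACVR1* WT and H3.1K27M, and 5.13, 4.72 and 5.60 with *ACVR1* R206H and H3.1K27M. It was highest with both mutations, with a rise of 1.01 (SE 0.15, adjusted p = 0.00046). Dkk3, a divergent member of the Dickkopf family, counted 2.78, 5.52 and 8.64 CPM with *ACVR1* WT, 4.93, 6.08 and 4.08 with *ACVR1* R206H, 9.50, 7.59 and 7.80 with *ACVR1* WT and H3.1K27M, and 14.02, 12.7 and 15.7 with *ACVR1* R206H and H3.1K27M, and rose by 0.80 (SE 0.10, adjusted p = 0.000179).

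The decoys Frzb and Sfrp2 went the other way. Frzb (ENSMUSG00000027004, chr2:80411970-80447625, minus strand) measured 4.09, 2.79 and 2.18 CPM with *ACVR1* WT, 3.67, 3.59 and 3.35 with *ACVR1* R206H, 16.9, 12.5 and 11.96 with *ACVR1* WT and H3.1K27M, and 10.9, 8.32 and 8.89 with *ACVR1* R206H and H3.1K27M. It was higher in the 6 libraries with H3.1K27M, with no overlap, and within these it fell with *ACVR1* R206H, with a log2 fold change of -0.53 (SE 0.13, adjusted p = 0.0139). Sfrp2 had 2.45, 2.06 and 1.21 CPM with *ACVR1* WT, 2.41, 1.72 and 1.56 with *ACVR1* R206H, 6.35, 6.07 and 5.96 with *ACVR1* WT and H3.1K27M, and 3.90, 3.86 and 5.19 with *ACVR1* R206H and H3.1K27M, and fell with a log2 fold change of -0.46 (SE 0.13, adjusted p = 0.0274). Sfrp1 did not pass in that comparison, with 0.08 (adjusted p = 0.639), and measured 6.96, 5.67 and 6.55 CPM with *ACVR1* WT, 5.23, 5.82 and 6.999 with *ACVR1* R206H, 8.34, 7.78 and 8.96 with *ACVR1* WT and H3.1K27M, and 9.60, 7.59 and 8.89 with *ACVR1* R206H and H3.1K27M. Summed over the 9 inhibitors, the CPM came to 20.8 ± 1.34 (SD, n = 3) with *ACVR1* WT, 25.7 ± 1.98 with *ACVR1* R206H, 42.4 ± 3.94 with *ACVR1* WT and H3.1K27M, and 64.0 ± 6.09 with both. Counting ignored strand and left out reads that touch 2 genes, so that reads over exon shared with a gene on the opposite strand count for neither. Such overlaps cover 16.1% of the Sfrp2 exon bases, 17.8% of those of Fzd5, 6.61% of Wnt7b, 4.58% of Wnt5a, 3.8% of Axin2 and 3.15% of Fzd6.

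**Figure D3:**
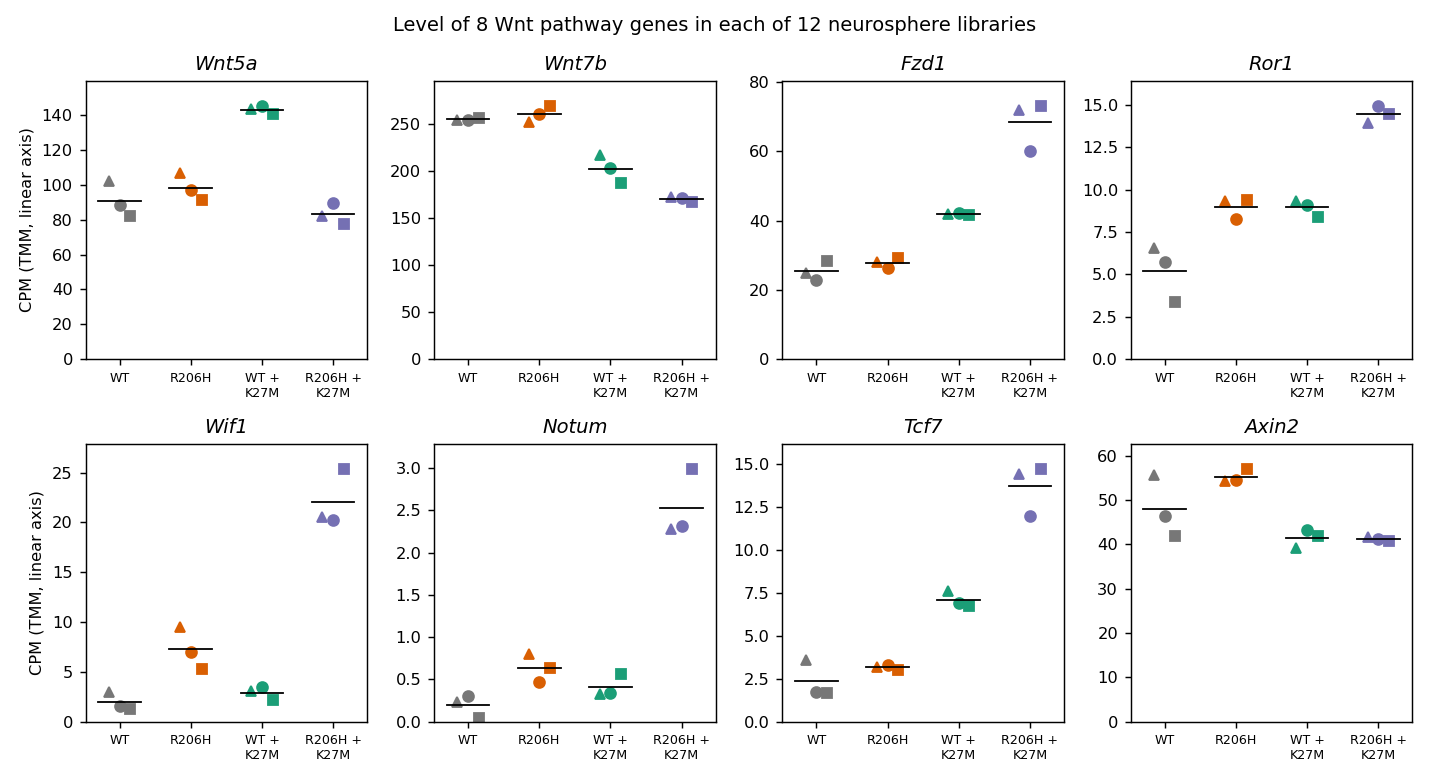
CPM (linear axes from 0) of 8 members in each of 12 libraries, with triangles, circles and squares for replicates 1, 2 and 3 and a line at the group mean. Wif1, Notum, Tcf7 and Fzd1 are highest with both mutations, Wnt5a is highest with *ACVR1* WT and H3.1K27M (141 to 145 CPM), and Axin2 lies between 39.3 and 43.2 CPM in all 6 libraries with H3.1K27M.

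The feedback genes did not move as a block. Notum (ENSMUSG00000042988, chr11:120653788-120661175, minus strand) was scarce, with 0.235, 0.310 and 0.0485 CPM with *ACVR1* WT, 0.805, 0.468 and 0.632 with *ACVR1* R206H, 0.332, 0.334 and 0.560 with *ACVR1* WT and H3.1K27M, and 2.28, 2.32 and 2.99 with *ACVR1* R206H and H3.1K27M. It passed the filter of that comparison through the libraries with both mutations alone, whose mean normalized count was 59.5 against 9.48 with *ACVR1* WT and H3.1K27M, so that its fitted log2 fold change of 2.64 (SE 0.27) is given as a description and not as a test. Notum encodes the enzyme that removes the lipid from Wnt proteins. Of its exon bases 29.4% overlap 1 antisense gene and 8.72% another. Tcf7 (ENSMUSG00000000782, chr11:52252371-52283014, minus strand), which encodes the TCF1 factor, measured 3.58, 1.75 and 1.70 CPM with *ACVR1* WT, 3.17, 3.33 and 3.01 with *ACVR1* R206H, 7.59, 6.93 and 6.72 with *ACVR1* WT and H3.1K27M, and 14.5, 11.97 and 14.7 with *ACVR1* R206H and H3.1K27M. The 3 libraries with both mutations were the highest and those with *ACVR1* WT and H3.1K27M came next, with no overlap, and the rise with H3.1K27M was 0.98 (SE 0.10, adjusted p = 1.97e-05). Nkd1, an inhibitor that binds Dishevelled, had 26.9, 16.6 and 12.7 CPM with *ACVR1* WT, 25.4, 23.9 and 19.5 with *ACVR1* R206H, 20.3, 17.8 and 14.7 with *ACVR1* WT and H3.1K27M, and 25.1, 22.7 and 28.1 with *ACVR1* R206H and H3.1K27M, with a rise of 0.56 (SE 0.10, adjusted p = 0.00241). Rnf43, a ubiquitin ligase that removes Frizzled from the membrane, counted 9.27, 16.97 and 12.6 CPM with *ACVR1* WT, 10.9, 11.1 and 7.53 with *ACVR1* R206H, 13.4, 13.3 and 10.1 with *ACVR1* WT and H3.1K27M, and 8.89, 7.29 and 7.06 with *ACVR1* R206H and H3.1K27M and fell with a log2 fold change of -0.64 (SE 0.13, adjusted p = 0.00332).

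Axin2, Lgr5, Znrf3 and Sp5 did not pass the test between the receptors when H3.1K27M was present. Axin2 (ENSMUSG00000000142, chr11:108920349-108950783, plus strand) measured 55.7, 46.4 and 41.8 CPM with *ACVR1* WT, 54.3, 54.5 and 57.01 with *ACVR1* R206H, 39.3, 43.2 and 41.998 with *ACVR1* WT and H3.1K27M, and 41.7, 41.3 and 40.8 with *ACVR1* R206H and H3.1K27M, with a log2 fold change of 0.02 (SE 0.05, adjusted p = 0.808). Lgr5, a receptor for the R-spondins, had 25.5, 20.6 and 16.3 CPM with *ACVR1* WT, 26.96, 27.3 and 27.4 with *ACVR1* R206H, 12.7, 11.9 and 11.9 with *ACVR1* WT and H3.1K27M, and 11.5, 12.7 and 11.7 with *ACVR1* R206H and H3.1K27M and a change of 0.01 (SE 0.08, adjusted p = 0.961). Znrf3, the relative of Rnf43, counted 34.2, 22.3 and 19.5 CPM with *ACVR1* WT, 32.7, 25.8 and 30.3 with *ACVR1* R206H, 41.4, 45.1 and 43.2 with *ACVR1* WT and H3.1K27M, and 44.02, 44.6 and 40.4 with *ACVR1* R206H and H3.1K27M with 0.02 (SE 0.06, adjusted p = 0.831). Sp5, a transcription factor gene that passed the filter through the libraries with both mutations alone (13.2 against 9.13 normalized counts), had 0.0941, 0 and 0 CPM with *ACVR1* WT, 0.0503, 0.104 and 0.0486 with *ACVR1* R206H, 0.622, 0.478 and 0.0800 with *ACVR1* WT and H3.1K27M, and 0.523, 0.343 and 0.822 with *ACVR1* R206H and H3.1K27M and a change of 0.59 (adjusted p = 0.477). Lef1 was too low for the filter of the tests, with 0.141, 0 and 0.243 CPM with *ACVR1* WT, 0.101, 0.208 and 0.292 with *ACVR1* R206H, 0.207, 0.0955 and 0.0400 with *ACVR1* WT and H3.1K27M, and 0.428, 0.386 and 0.448 with *ACVR1* R206H and H3.1K27M, and its 3 libraries with both mutations were the highest of the 12. With no filter on low counts Lef1 passed between the receptors in the presence of H3.1K27M, as did 22 of 50 members and 12% of all genes.

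The same contrast without H3.1K27M gave no call with all libraries included. Of 35 members tested 0 passed, as did 0 of all 15066 genes (0%), and 3 members and 534 genes had an unadjusted p under 0.05. DESeq2 called 1 member, Wif1, and 26 genes. Wif1 measured 5.25 to 9.51 CPM with *ACVR1* R206H against 1.26 to 3.01 with *ACVR1* WT, a log2 fold change of 1.88 (SE 0.38, adjusted p = 0.94) in edgeR and an adjusted p of 0.00622 in DESeq2. In 5 of the members tested the groups did not overlap, each higher with *ACVR1* R206H (Wnt9a, Fzd7, Ror1, Wif1 and Lgr5), against 9.21% of all genes (5.34% higher and 3.87% lower). The median log2 fold change was 0.11 in the members and -0.013 in all genes.

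Without the library labelled *ACVR1* WT replicate 1, 11 members and 3485 genes (23.1% of those tested) passed between *ACVR1* R206H and *ACVR1* WT. The 10 that were higher comprised Wif1 at 2.34 (SE 0.31, adjusted p = 0.00338), the receptors Fzd10 at 1.00 (SE 0.19, adjusted p = 0.00918), Ror1 at 0.98 (adjusted p = 0.0156), Fzd7 at 0.47 (adjusted p = 0.0149) and Fzd2 at 0.42 (adjusted p = 0.018), and 5 feedback genes. These were Tcf7 at 0.87 (adjusted p = 0.0152), Nkd1 at 0.65 (adjusted p = 0.0196), Lgr5 at 0.56 (adjusted p = 0.0101), Znrf3 at 0.50 (adjusted p = 0.0218) and Axin2 at 0.32 (adjusted p = 0.0167). Wnt5b was lower, at -0.45 (SE 0.14, adjusted p = 0.0493). The *ACVR1* WT libraries that then remain, replicates 2 and 3, also lay above all 3 *ACVR1* R206H libraries in summed markers of neurons (40.1 and 44.2 against 24.5 to 25.6 CPM), oligodendrocytes (626 and 813 against 406 to 502) and microglia (14.1 and 23.2 against 6.59 to 7.63), and the part of these in the calls was not tested. That library held 55.7 CPM of Axin2 against 46.4 and 41.8 in the rest of its group, and 26.9 of Nkd1 against 16.6 and 12.7, in both cases within or above the range of the *ACVR1* R206H libraries. Leaving out any other library of this comparison gave 0 calls, and the adjusted p of Wif1 ran from 0.00338 to 1.00 over the 12 alternatives. Of the 20 members that passed with H3.1K27M, 19 were tested here with all libraries and 13 had the same sign, and among all genes 57.9% of those called with H3.1K27M did so. The 2 contrasts share no library.

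**Figure D4:**
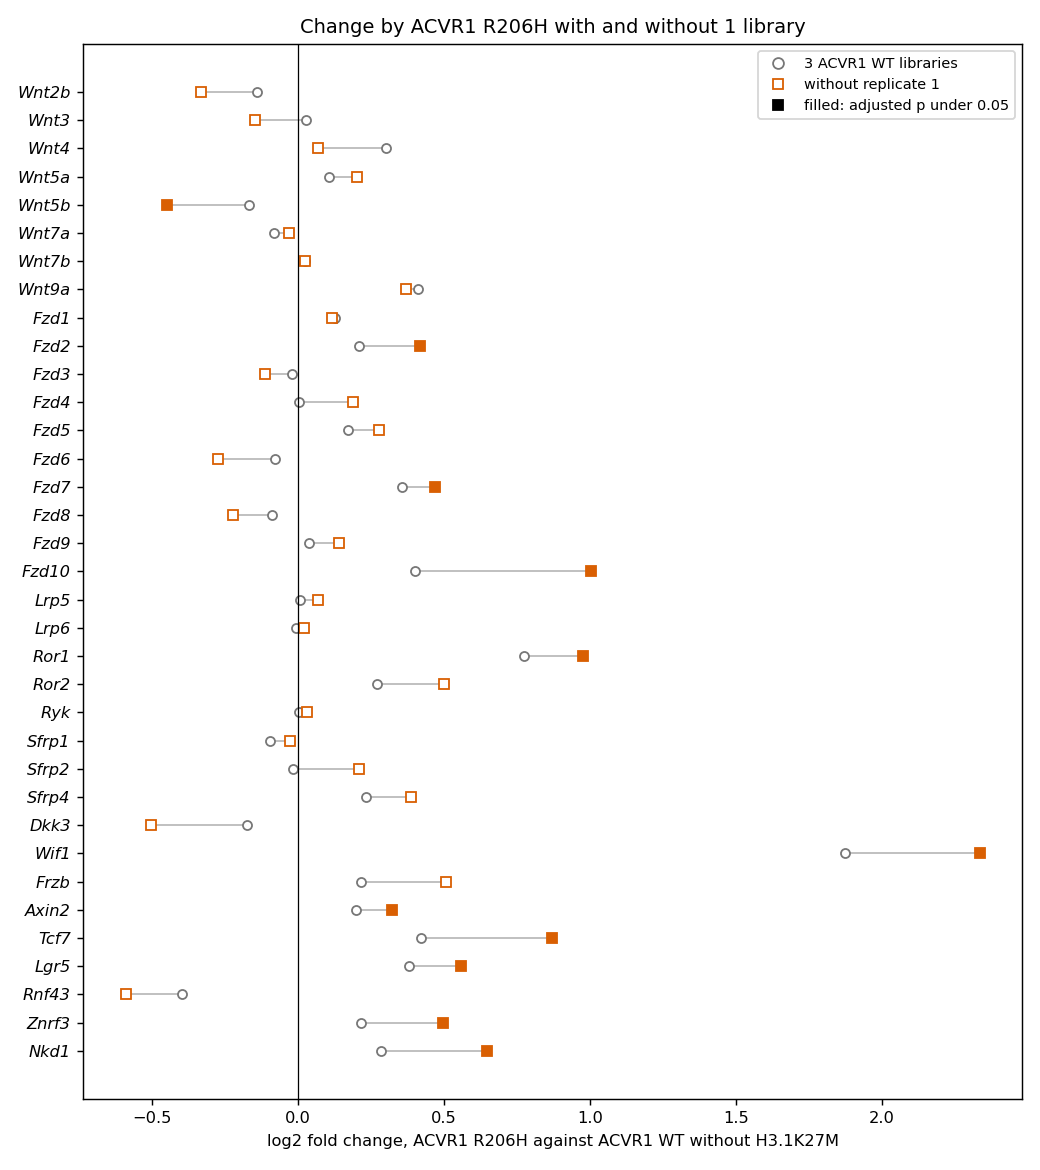
Log2 fold change of each tested member, *ACVR1* R206H against *ACVR1* WT without H3.1K27M, with all 3 *ACVR1* WT libraries (circles) and without the library labelled replicate 1 (squares, filled where the adjusted p was under 0.05). Wif1 moves from 1.88 to 2.34 and Fzd10 from 0.40 to 1.00, and 11 squares and no circle are filled.

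Whether *ACVR1* R206H acted differently with and without H3.1K27M was tested with an interaction over all 12 libraries, as the effect with H3.1K27M minus that without it. Wnt5a was the 1 member of 36 that passed, at -0.85 (SE 0.13, adjusted p = 0.0485), among 11 of 15445 genes (0.0712%, with 0.0583% positive and 0.0129% negative), and 9 of the 36 members and 1183 of the 15445 genes had an unadjusted p under 0.05. Its change was 0.11 without H3.1K27M and -0.75 with it. The Wnt5a call was lost when any of 11 of the 12 libraries was left out (0 members each). In separate fits of all libraries it was also lost with the size factors of DESeq2 in edgeR and with the replicate number as a block. It was kept without the library labelled *ACVR1* WT replicate 1, at -0.94 (SE 0.10, adjusted p = 5.92e-05). Over the 17 alternatives the adjusted p of Wnt5a ran from 2.7e-06 to 0.212. Without that library 11 members and 4112 genes (26.6%) passed, and 3 of the 11 had a positive difference (Dkk3 at 1.31 (adjusted p = 0.00225), Wnt5b at 1.03 (adjusted p = 0.00224) and Fzd1 at 0.63 (adjusted p = 0.00243)). The other 8 were negative, namely Frzb at -1.03 (adjusted p = 0.0117), Fzd10 at -0.69 (adjusted p = 0.0106), Lgr5 at -0.54 (adjusted p = 0.00839), Fzd9 at -0.48 (adjusted p = 0.011), Znrf3 at -0.46 (adjusted p = 0.0182), Axin2 at -0.29 (adjusted p = 0.0225) and Wnt7b at -0.23 (adjusted p = 0.0379), besides Wnt5a. Wif1 rose in both backgrounds without that library, and the difference between its effects, 1.09 (SE 0.43, adjusted p = 0.615) over all 12 libraries and 0.64 (SE 0.39, adjusted p = 0.255) without it, did not pass.

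The remaining question was what H3.1K27M changed with each receptor, in contrasts that share their groups with those of the receptor. The decoy gene Frzb, the receptor genes Fzd10 and Ror2 and the transcription factor gene Tcf7 were higher with the histone, and Lgr5 and Wnt7b were lower. With *ACVR1* WT, 16 of 35 members passed between the libraries with and without H3.1K27M, 13 higher and 3 lower, against 23% of 15385 genes (12.6% higher and 10.4% lower). The 16 comprised 4 of 8 ligands, 6 of 15 receptors, 3 of 6 inhibitors and 3 of 6 feedback genes. Frzb had the largest rise, 2.18 (SE 0.27, adjusted p = 0.00426), followed by Fzd10 at 1.76 (adjusted p = 0.0222), Ror2 at 1.73 (adjusted p = 0.00293), Sfrp2 at 1.67 (adjusted p = 0.00802) and Tcf7 at 1.58 (adjusted p = 0.0162). Wnt3 rose by 1.21 (adjusted p = 0.0148) and Wnt5a by 0.64 (adjusted p = 0.00651), while the 3 that fell had log2 fold changes of -1.34 (adjusted p = 0.028) for Wnt5b, -0.79 (adjusted p = 0.0225) for Lgr5 and -0.34 (adjusted p = 0.0212) for Wnt7b. Fzd7, Sfrp4, Znrf3, Fzd5, Fzd1 and Fzd4 rose by between 0.61 and 0.79. Among the members tested, the groups did not overlap in 18 that were higher and 4 that were lower, against 23.5% and 21.1% of all genes. The median log2 fold change was 0.42 in the members and -0.021 in all genes. Calls in this comparison depended on single libraries. Without the library labelled *ACVR1* WT replicate 1, 24 members and 8115 genes (52.6%) passed. Among the 16 that passed with all libraries, the rises were then 2.46 (SE 0.22, adjusted p = 4.91e-05) for Frzb, 2.36 (SE 0.13, adjusted p = 6.6e-06) for Fzd10, 1.96 (adjusted p = 5.73e-06) for Ror2, 1.90 (adjusted p = 0.000206) for Sfrp2, 2.02 (adjusted p = 3.3e-05) for Tcf7, 1.04 (adjusted p = 0.00635) for Wnt3 and 0.74 (adjusted p = 2.82e-05) for Wnt5a. The log2 fold changes of Wnt5b, Lgr5 and Wnt7b were -1.62 (adjusted p = 4.36e-05), -0.61 (adjusted p = 0.0031) and -0.35 (adjusted p = 0.0035), and the other 6 rises lay between 0.70 (Fzd1) and 1.04 (Znrf3). The 8 members that passed in addition were Wif1 at 1.00 (adjusted p = 0.0139), Ror1 at 0.97 (adjusted p = 0.00494), Sfrp1 at 0.44 (adjusted p = 0.0244), Wnt7a at 0.43 (adjusted p = 0.0187), Fzd9 at 0.37 (adjusted p = 0.00559) and Ryk at 0.22 (adjusted p = 0.0105), which were higher, and Fzd3 at -0.35 (adjusted p = 0.00722) and Fzd6 at -1.15 (adjusted p = 0.00355), which were lower. Fewer passed without other libraries, with 7 members without *ACVR1* WT replicate 2 (9.36% of all genes) and 6 without replicate 1, 2 or 3 of *ACVR1* WT with H3.1K27M (7.75%, 6.82% and 6.77%). The 6 that held in all of these were Wnt5a, Fzd1, Fzd7, Ror2, Sfrp2 and Frzb. With the replicate number as a block 11 members passed, against 13.1% of all genes, and Fzd4, Sfrp4, Wnt5b, Wnt7b and Znrf3 lost their calls.

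With *ACVR1* R206H, 30 of 36 members passed between the libraries with and without H3.1K27M, 22 higher and 8 lower, against 56.5% of 15482 genes (29.1% higher and 27.4% lower). All 6 inhibitors tested rose, namely Wif1 by 1.64 (SE 0.16, adjusted p = 3.91e-06), Sfrp4 by 1.57 (adjusted p = 1.18e-05), Dkk3 by 1.53 (adjusted p = 1.51e-06), Frzb by 1.43 (adjusted p = 2.3e-06), Sfrp2 by 1.22 (adjusted p = 0.000277) and Sfrp1 by 0.56 (adjusted p = 0.00307). Of 15 receptors 9 rose, led by Fzd10 at 1.67 (adjusted p = 5.08e-08), Ror2 at 1.59 (adjusted p = 5.26e-08), Fzd1 at 1.32 (adjusted p = 3.7e-08) and Fzd5 at 1.08 (adjusted p = 5.17e-07), with Fzd4, Ror1, Fzd7, Fzd8 and Ryk between 0.23 and 0.87. The receptors that fell had log2 fold changes of -0.83 (adjusted p = 0.00018) for Fzd6, -0.15 (adjusted p = 0.0486) for Fzd3 and -0.15 (adjusted p = 0.037) for Lrp5. Of the ligands Wnt3, Wnt4, Wnt9a and Wnt7a rose, Wnt3 by 1.42 (adjusted p = 0.000158). The ligands that fell had -0.60 (adjusted p = 0.00112) for Wnt5b, -0.58 (adjusted p = 2.55e-07) for Wnt7b and -0.21 (adjusted p = 0.0202) for Wnt5a. Among the feedback genes Tcf7 rose by 2.14 (SE 0.12, adjusted p = 3.29e-08), Notum by 2.02 (adjusted p = 3.15e-05) and Znrf3 by 0.57 (adjusted p = 0.000102), whereas Lgr5 and Axin2 fell, with log2 fold changes of -1.15 (SE 0.07, adjusted p = 7.43e-08) and -0.39 (adjusted p = 2.97e-05). No overlap between the groups was seen in 22 of the members tested that were higher and 9 that were lower with the histone, against 29.3% and 33.8% of all genes. The median log2 fold change was 0.56 in the members and -0.0018 in all genes. Leaving out each library gave 25 to 30 members, against 49.5% to 53.7% of all genes, with calls of Fzd3, Lrp5, Wnt4, Wnt5a and Wnt9a lost in at least 1 case. With all 12 libraries in one fit 25 members passed, against 38.6% of all genes, and Fzd3, Lrp5, Wnt5a, Wnt5b and Wnt7a lost their calls. These contrasts by histone share no library with each other, and 28 of the 29 members that passed with *ACVR1* R206H and were tested with *ACVR1* WT had the same sign there, as did 91.7% of such genes, Wnt5a being the exception among the members.

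**Figure D5:**
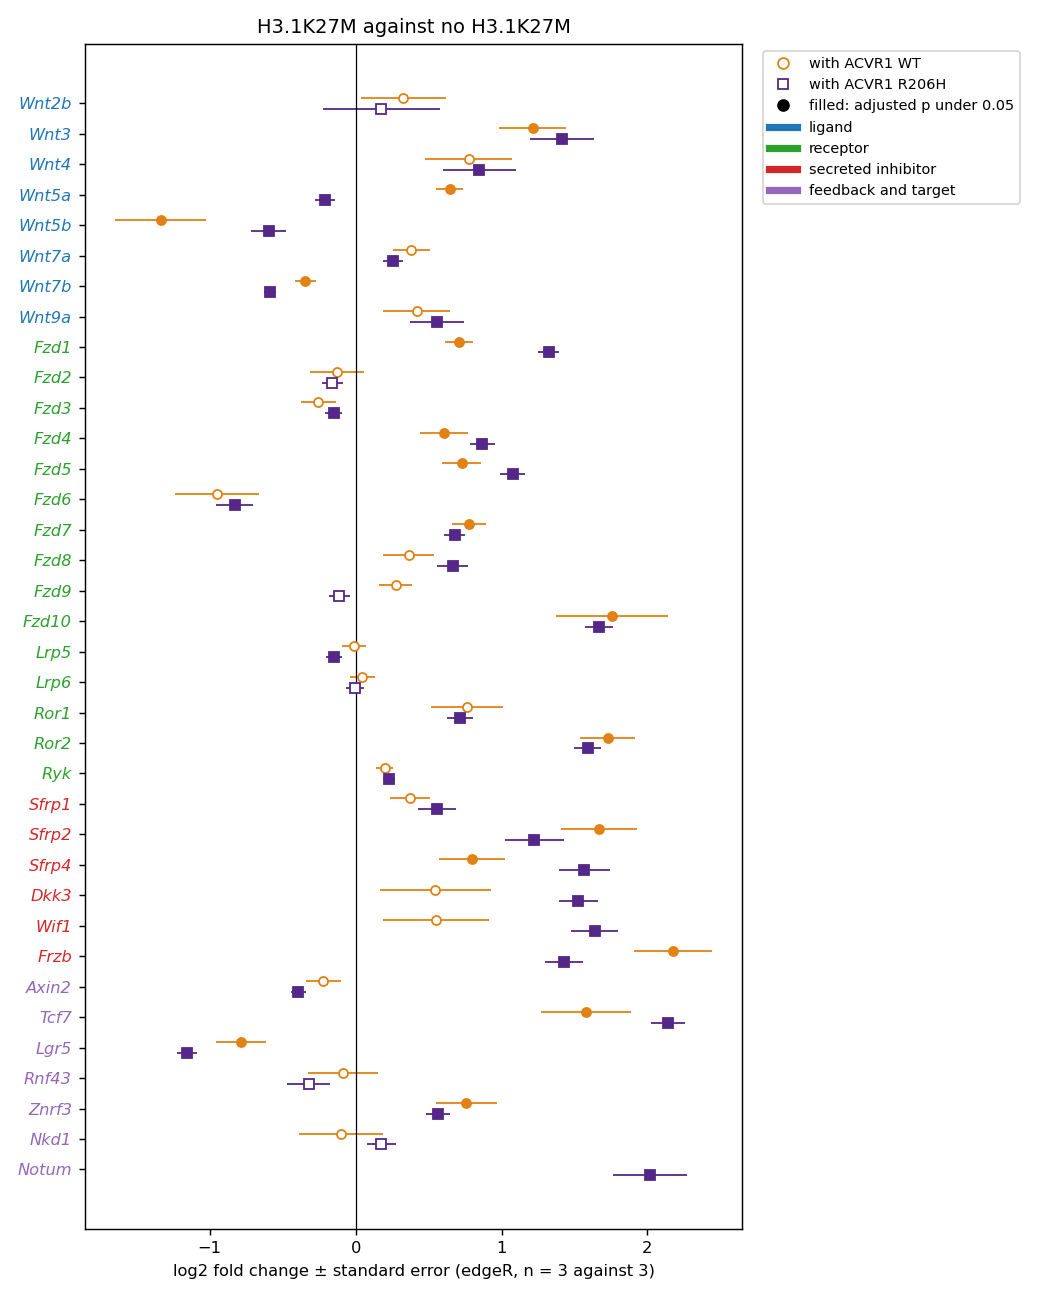
Log2 fold change with its standard error for each tested member, libraries with H3.1K27M against those without, with *ACVR1* WT (circles) and *ACVR1* R206H (squares), filled where the adjusted p was under 0.05. Tcf7 (1.58 and 2.14), Frzb (2.18 and 1.43) and Ror2 (1.73 and 1.59) lie far to the higher side with both receptors, Lgr5 (-0.79 and -1.15) to the lower side, and Wnt5a on either side (0.64 and -0.21).

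Markers of other cells moved with the histone groups too. The 6 microglia markers summed to 3.62 to 23.2 CPM with *ACVR1* WT and 6.59 to 7.63 with *ACVR1* R206H, against 0.124 to 0.287 and 0.386 to 0.570 in the same groups with H3.1K27M, where C1qa was at or near 0. The 7 fibroblast and meninges markers summed to 6.71 to 9.48 CPM in the 6 libraries without H3.1K27M, to 14.0 to 15.4 with *ACVR1* WT and H3.1K27M, and to 16.5 to 18.9 with both mutations, and of these markers Lum was at 0 in 3 libraries. The 5 endothelial markers summed to 1.12 to 1.98, 1.35 to 1.86, 1.81 to 2.5999 and 3.22 to 5.49 CPM in the order of the 4 groups, with Cldn5 at 0 in 11 of 12 libraries. Sums of 5 neuronal markers were 13.4 to 16.0 CPM with *ACVR1* WT and H3.1K27M and 24.9 to 31.5 with both mutations, of 5 oligodendrocyte markers 388 to 431 and 351 to 383, and of 5 choroid plexus and ependyma markers 86.4 to 91.4 and 92.0 to 102. Without H3.1K27M the neuronal sums were 16.5 to 44.2 with *ACVR1* WT and 24.5 to 25.6 with *ACVR1* R206H, the oligodendrocyte sums 359 to 813 and 406 to 502, and the choroid plexus and ependyma sums 54.2 to 109 and 60.8 to 78.9. In the choroid plexus and ependyma sum, Ttr had means of 32.6 and 23.7 CPM without H3.1K27M and 2.48 and 0.978 with it (*ACVR1* WT first). Foxj1 had 38.3 and 40.9 against 66.5 and 75.1, and Otx2 4.71 and 4.99 against 19.6 and 20.8. Among neuronal markers Tubb3 was lower with the histone, at 24.8 and 16.4 against 6.26 and 11.6, and Rbfox3 higher, at 0.525 and 0.388 against 1.78 and 1.73. The part of such cells in the changes of the members was not tested. The labels give no batch, and a culture or preparation shared within a histone group cannot be told apart from the histone.

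Further genes of the pathway were counted from a list of 81, made up of secretion and agonist genes, other inhibitors, the cytoplasmic beta-catenin route, nuclear partners, planar cell polarity genes and other targets. With H3.1K27M, 24 of 70 tested passed between *ACVR1* R206H and *ACVR1* WT, 16 higher and 8 lower, against 20.3% of all genes. With all 12 libraries in one fit 5 passed, against 2.85% of all genes. Other beta-catenin targets accounted for 7 of the 24, out of 10 tested, and none of 5 secretion and agonist genes passed. Among those that rose, the smallest adjusted p values belonged to Cxxc5, an inhibitor that binds Dishevelled, at 1.11 (SE 0.06, adjusted p = 1.08e-07), Apc2 at 0.50 (adjusted p = 5.65e-06), the cyclin gene Ccnd2 at 0.48 (adjusted p = 7.54e-06), the Notch ligand gene Jag1 at 0.69 (adjusted p = 1.32e-05) and Daam2 at 0.80 (adjusted p = 1.74e-05). Among those that fell they belonged to Igfbp4 at -0.46 (adjusted p = 1.18e-05), Myc at -0.49 (adjusted p = 3.61e-05), the co-repressor gene Tle2 at -0.32 (adjusted p = 0.000956), Ccnd1 at -0.27 (adjusted p = 0.00115) and Ctnnb1, which encodes beta-catenin, at -0.17 (adjusted p = 0.00266). Ccnd1 and Myc, both known targets of beta-catenin, thus fell where Ccnd2 and Jag1 rose. Without H3.1K27M 0 of 68 passed, with 4 at an unadjusted p under 0.05 (534 of all 15066 genes) and 0 in DESeq2 (0.173% of all genes). There, 24 passed (14 higher and 10 lower) without the library labelled *ACVR1* WT replicate 1, where 23.1% of all genes did. The histone contrast with *ACVR1* WT gave 23 of 71 (9 higher and 14 lower) against 23% of all genes, and 47 (23 higher and 24 lower) against 52.6% without that library. Leaving out any other library of that contrast gave 7 to 14, against 6.77% to 17.8% of all genes. With *ACVR1* R206H the histone contrast gave 44 of 70 (21 higher and 23 lower) against 56.5% of all genes. The interaction gave 1 of 71, Cxxc5, against 0.0712%, then 23 (14 positive and 9 negative) against 26.6% without *ACVR1* WT replicate 1, and 0 when any other library was left out.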

How the data were processed

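RNAseq was measured in 12 neurosphere libraries, 3 in each of 4 groups taken from the sample labels. Per the labels and the methods of the study, read pairs were mapped by the authors on mm10 (GRCm38) with RNA-STAR (STAR 2.6.0b-1 in the submitters' processing notes) in Galaxy, counted them per gene with HTSeq-count (union mode, no strand, alignments of quality 10 or more, multiply aligned and ambiguous reads not counted; version not given in the sources used here), and deposited the raw counts of each sample, which are not normalized or pooled. Since strand was ignored, reads over exon shared with an antisense gene were ambiguous and counted for neither gene.

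Gene names, positions and exon lengths came from GENCODE M21 (54495 of 54532 genes matched), and promoters from RefSeq. Each comparison was fitted on its own 6 libraries, and the interaction on all 12, with edgeR 4.0.16 in R 4.3.3 (TMM, quasi-likelihood F test, Benjamini-Hochberg adjustment over all genes tested, threshold 0.05) on genes with a mean of at least 10 counts after median-of-ratios scaling. SE is the standard error of the log2 fold change. CPM used TMM factors over 12 libraries, and levels between genes were compared per kb of exon. A single gene with 3 against 3 cannot go below an exact p of 0.1, so that p-values came from this model. The scripts were tested on simulated data.

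The members and lists were chosen with earlier results of these data known. Values are given for Wnt5a, for every member past the threshold in any test and for the 9 feedback genes, and partner genes are named up to 5 in each direction by adjusted p in the contrast of *ACVR1* R206H with *ACVR1* WT under H3.1K27M. No 2 replicates agreed within sampling noise (the lowest chi-square divided by its degrees of freedom was 2.78). Alternatives were DESeq2 1.42.0 (the tool of the authors), its size factors in edgeR, no filter, a minimum of 10 counts in all libraries, the replicate number as a block, all 12 libraries in one fit, and leaving out each library.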

Additional observations from a re-analysis of the deposited data

Results flagged for a closer look

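A test of the difference between the changes by *ACVR1* R206H with and without H3.1K27M was passed by Wnt5a, at -0.85 (SE 0.13, adjusted p = 0.0485 in edgeR's quasi-likelihood test over 12 libraries), and by Cxxc5, a gene of the pathway outside the 50 members, at 0.92 (SE 0.13, adjusted p = 0.0443). Both adjusted p values lie close to the threshold of 0.05, and both calls were lost when any 1 of the 11 libraries other than *ACVR1* WT replicate 1 was left out. Without that library 11 members and 23 of the other pathway genes passed. A test for single outlying values was not run, since groups held 3 libraries each.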

How the results depend on the processing

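With H3.1K27M, the count of members past the threshold between *ACVR1* R206H and *ACVR1* WT was 20 in edgeR and stayed within 1.5 times of that in every alternative but 1: with all 12 libraries in one fit it was 7, and the genes fell from 3185 to 440. Leaving out each library gave 17 to 21 members and 1915 to 2966 genes, with 1915 without *ACVR1* R206H and H3.1K27M replicate 3 and 2015 without *ACVR1* WT and H3.1K27M replicate 2. The small changes of Axin2, Lgr5 and Znrf3, which did not pass, took either sign when a library was left out (-0.018 to 0.050, -0.049 to 0.038 and -0.017 to 0.073 on the log2 scale), and that of Lgr5 was -0.00637 with no filter. Without H3.1K27M, edgeR called 0 genes (534 at an unadjusted p under 0.05), DESeq2 called 1 member and 26 genes, and the fit of all 12 libraries called 11 genes and 0 members. There, leaving out a library gave 0 to 11 members and 0 to 3485 genes, and only leaving out the library labelled *ACVR1* WT replicate 1 gave more than 0.

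Between the libraries with and without H3.1K27M, *ACVR1* WT gave 16 members and 3533 genes, and 21 members and 6335 genes with all 12 libraries in one fit. Leaving out each library gave 6 to 24 members and 1037 to 8115 genes, and the changes of Rnf43 (-0.28 to 0.16) and Nkd1 (-0.31 to 0.26), which did not pass, took either sign. With *ACVR1* R206H, 25 to 30 members and 7589 to 8350 genes passed when a library was left out, and 25 members and 5963 genes with all 12 libraries in one fit. For the interaction DESeq2 called 2 members (Wnt5a and Fzd1) and 97 genes, edgeR with the size factors of DESeq2 0 members, and edgeR with no filter 18 genes. Leave-outs gave 0 to 11 members and 3 to 4112 genes, with Fzd10 (-0.69 to 0.19), Ror1 (-0.25 to 0.18) and Nkd1 (-0.081 to 0.49), none of them past the threshold in edgeR with all libraries, taking either sign. The cause of these shifts was not tested.

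With the replicate number as a block, the contrast of the receptors called 0 members and 0 genes without H3.1K27M and 20 members and 3335 genes with it, that of the histone called 11 members and 2023 genes with *ACVR1* WT and 29 members and 8606 genes with *ACVR1* R206H, and the interaction 0 members, 0 of the further pathway genes (so that Wnt5a and Cxxc5 were lost) and 2 genes. Deviations of libraries with the same number correlated at 0.25, 0.32 and -0.11 between the groups without H3.1K27M and at -0.030 to 0.062 elsewhere, so that they were not positive in every pair. The main fits used no block. The study used paired t tests for its p3 neurosphere assays, without naming the RNAseq libraries there. The labels do not say what a number marks, and whether libraries with the same number share an origin was not tested. Settings were counted for members past the threshold in the main fit, Wnt5a, the feedback genes and a few others. For these, the sign and the side of the threshold held in 252 of 284 settings for *ACVR1* R206H with H3.1K27M, 123 of 132 without it, 175 of 228 and 356 of 383 for the histone with *ACVR1* WT and *ACVR1* R206H, and 276 of 304 for the interaction. Fzd10, Fzd2 and Wnt5b without H3.1K27M were not counted. Nor were the members gained for the histone with *ACVR1* WT by leaving out *ACVR1* WT replicate 1. Groups held 3 libraries each, and what limited the precision was not tested. At this depth 13 members were too scarce to pass the filter of the tests.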
